A study of Mus musculus with 6 samples.

Results

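Phospholipases A2 cleave the fatty acid at the sn-2 position of a glycerophospholipid and release a free fatty acid, often arachidonate, and a lysophospholipid. Their transcripts were examined here in epididymal white adipose tissue (eWAT) of WT mice and of mice with an adipocyte-specific knockout of *Prmt5* (Prmt5AKO). *Prmt5* encodes the main arginine methyltransferase that makes symmetric dimethylarginine. The genes described are the 9 listed phospholipase A2 genes found by symbol in the table of 16619 genes, *Pla2g2e*, *Pla2g2d*, *Pla2g5*, *Pla2g12a*, *Pla2g4a*, *Pla2g4e*, *Pla2g6*, *Pla2g7* and *Pla2g15*. All 9 of the 9 listed were present and all 9 passed the filter on low values, which kept 16109 genes. The genes were chosen by symbol for a list drawn up with their CPM and fold changes in these same 6 libraries known, so differences between genotypes are given for them as a description, with no p-value.

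RNA-seq covered 3 WT and 3 Prmt5AKO libraries of eWAT, all from females aged 6 months. By the study's methods WT mice carry *Prmt5* flox/flox without a Cre, and Prmt5AKO mice carry Adipoq-Cre with *Prmt5* flox/flox, so that both groups share the floxed allele. Adipoq-Cre acts in adipocytes, and RNA of vessels, fibroblasts and immune cells of the depot is in every library. It is not stated that each library is a separate mouse, so any p-value covers only the spread among these libraries, part or all of which may be technical.

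The family is usually split by where its enzymes work. Secreted phospholipases A2 are small, calcium-dependent enzymes that act on lipoproteins and the outer face of membranes, whereas cytosolic enzymes of group IV act inside cells, and cytosolic phospholipase A2α is the enzyme best known for feeding arachidonate to prostaglandin and leukotriene synthesis. Calcium-independent, platelet-activating factor (PAF) degrading and lysosomal enzymes complete the set. In white fat, secreted enzymes of group IIE and group V are known from mouse studies to be made by adipocytes of obese animals.

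On mouse build GRCm38 the secreted genes *Pla2g2d*, *Pla2g5* and *Pla2g2e* lie together on chromosome 4, in a stretch of 107083 bp from the start of *Pla2g2d* to the end of *Pla2g2e*. *Pla2g2d* runs from 138775735 to 138782046 on the plus strand, *Pla2g5* from 138799244 to 138863482 on the minus strand and *Pla2g2e* from 138877942 to 138882817 on the plus strand. *Pla2g5* and *Pla2g2e* are thus transcribed away from each other, with 14460 bp between their 5′ ends. The fourth secreted gene, *Pla2g12a*, is on chromosome 3 (129878606 to 129895825). The genes *Pla2g4a* (chromosome 1, 149829618 to 149961290), *Pla2g4e* (chromosome 2, 120166412 to 120245335), *Pla2g6* (chromosome 15, 79286228 to 79328390), *Pla2g7* (chromosome 17, 43568098 to 43612201) and *Pla2g15* (chromosome 8, 106150399 to 106164715) are not linked to one another.

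The 250 bases before the annotated start are shown for *Pla2g2e*, *Pla2g5* and *Pla2g4a*, because these were the members whose genotypes did not overlap. The sequences are from RefSeq (GRCm38.p6), run 5′ to 3′ on the gene's strand and end at the base before the start. They cover chr4:138877692-138877941 on the plus strand, chr4:138863470-138863719 on the minus strand and chr1:149961291-149961540 on the minus strand. Capitals mark matches to the motifs searched.
Pla2g2e: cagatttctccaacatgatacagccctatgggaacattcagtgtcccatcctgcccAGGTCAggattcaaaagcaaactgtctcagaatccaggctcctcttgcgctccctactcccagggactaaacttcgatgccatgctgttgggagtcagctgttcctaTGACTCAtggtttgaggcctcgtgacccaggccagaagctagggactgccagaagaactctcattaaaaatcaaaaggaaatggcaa
Pla2g5: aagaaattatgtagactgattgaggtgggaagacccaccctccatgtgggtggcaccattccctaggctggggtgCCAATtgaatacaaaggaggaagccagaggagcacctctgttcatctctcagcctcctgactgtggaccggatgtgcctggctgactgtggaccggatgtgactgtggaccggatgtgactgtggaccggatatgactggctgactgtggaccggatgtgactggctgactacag
Pla2g4a: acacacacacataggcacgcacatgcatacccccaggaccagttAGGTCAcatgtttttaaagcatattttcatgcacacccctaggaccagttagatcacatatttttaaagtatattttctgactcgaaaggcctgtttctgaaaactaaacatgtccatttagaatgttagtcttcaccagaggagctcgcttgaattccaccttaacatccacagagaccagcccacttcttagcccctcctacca

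The motifs searched on both strands of the 9 windows were the TATA box (TATAAA), the CCAAT box (CCAAT), the GC box (GGGCGG), the nuclear receptor motif (AGGTCA), and the C/EBP (TTGCNNAA), AP-1 (TGANTCA) and E-box (CACGTG) motifs. *Pla2g2e* was the only one of the 9 with an AP-1 match, from 87 to 81 bases before the start, and 6.87% of 27025 promoters of the same length hold one. The nuclear receptor motif was found in *Pla2g2e* and *Pla2g4a*, against 13.8% of all promoters. *Pla2g5* held a CCAAT box, as did *Pla2g2d*, *Pla2g12a*, *Pla2g6* and *Pla2g15*, against 34.5% of all promoters. The stretch actgtggaccgg occurs 5 times in the *Pla2g5* window. The TATA box and the E-box were in none of the 9, against 12.97% and 6.05% of all promoters. The windows follow RefSeq starts, which differ from the GENCODE starts by 13 bases for *Pla2g5*, 19 for *Pla2g6*, 45 for *Pla2g15*, 353 for *Pla2g7* and 2578 for *Pla2g12a*, and the windows of *Pla2g7* and *Pla2g12a* lie inside the genes as placed above. These are matches of letters, and binding was not measured.

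Reads counted per gene ranged from 18731215 to 27445096 per library, and values are given as CPM, the read count of a gene relative to a library total that was scaled by 1 factor per library. Each member rested on between 4 and 2902 reads in a library. *Prmt5* was at 36.6, 59.7 and 39.7 CPM in WT and at 14.6, 22.0 and 28.5 CPM in Prmt5AKO eWAT, so every Prmt5AKO library lay below every WT library. The libraries differed by more than genotype. On the first principal component, with 64.5% of the variance, Prmt5AKO replicate 1 lay at -53.3, between WT replicate 1 at -74.6 and WT replicate 3 at -40.2, while WT replicate 2 and Prmt5AKO replicates 2 and 3 lay at 26.1, 61.0 and 81.0. The summed level of the 7 nuclear-retained RNAs found (of 8 listed, among them *Neat1* and *Malat1*) followed nearly the reverse order, at 3072, 810 and 2133 CPM in WT and 3067, 195 and 202 CPM in Prmt5AKO replicates 1 to 3. All 10 adipocyte markers were detected, with summed levels of 41803 to 55263 CPM in WT and 28868 to 42135 CPM in Prmt5AKO. They were split, with 4 positive log2 fold changes (*Adipoq*, *Plin1*, *Lipe* and *Pnpla2*) and 6 negative. The sums are weighted to *Fabp4* and *Cfd*, the highest of them. Their means were 15129 and 13218 CPM in WT and 11248 and 5366 CPM in Prmt5AKO, with overlapping genotypes for *Fabp4*. Of 10 ovary and uterus markers 5 were in the table, with summed levels of 9.65 to 11.1 CPM in WT and 10.4 to 12.4 CPM in Prmt5AKO. Other lists varied widely among libraries. The 6 skeletal muscle markers summed to 1031, 139 and 2035 CPM in WT and 317, 1043 and 1561 CPM in Prmt5AKO replicates 1 to 3. The 7 mesothelial markers summed to 393, 399 and 260 CPM in WT and 89.9, 324 and 476 CPM in Prmt5AKO.

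Fold changes were taken with limma, a linear model that moderates each gene's variance, on log2(CPM + 0.5), and are Prmt5AKO over WT with a standard error (SE). Calls required a p under 0.05 after Benjamini-Hochberg adjustment together with a log2 fold change whose size passed 0.5. Limma called 0 of 16109 genes (0.0%), with 1404 at an unadjusted p under 0.05 (8.72%), and it called 0 of the 9 phospholipase A2 genes, with 4 at an unadjusted p under 0.05. On the reads recovered from the CPM, edgeR's quasi-likelihood test and limma-voom called 0 genes, edgeR's likelihood ratio test called 1 of the 9 (*Pla2g2e*, higher) against 1.01% of all genes (0.677% higher), and DESeq2 called 3 of the 9 (*Pla2g2e* and *Pla2g5* higher, *Pla2g4a* lower) against 1.87% (1.2% higher and 0.67% lower). In fits with the replicate number as a term, limma called *Pla2g2e* against 0.801% of all genes (0.546% higher), and edgeR's likelihood ratio test called *Pla2g2e* and *Pla2g4a* against 4.23% (2.19% higher and 2.04% lower). In 3 of the 9 the genotypes did not overlap, with 2 higher and 1 lower in Prmt5AKO, against 8.16% of all genes higher and 6.28% lower. As these genes were listed with this comparison known, none of these counts is evidence about the family.

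**Figure D1:**
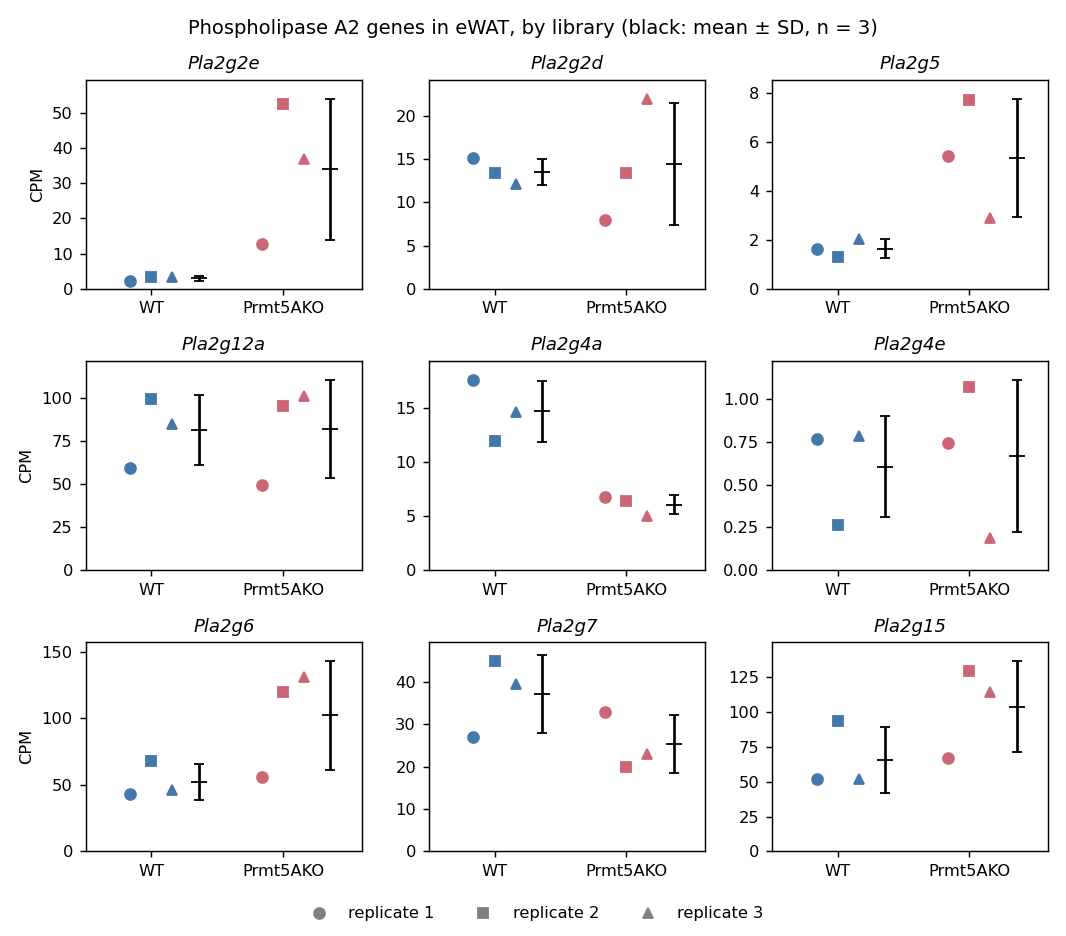
CPM (y axes, linear, from 0) of the 9 phospholipase A2 genes in the 3 WT (blue) and 3 Prmt5AKO (red) libraries, with the marker shape giving the replicate and black bars the mean ± SD (n = 3). The genotypes are apart for *Pla2g2e*, *Pla2g5* and *Pla2g4a* and overlap for the other 6.

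Among the secreted enzymes, *Pla2g2e* differed most between genotypes. It encodes group IIE secreted phospholipase A2, which in mice acts on minor phospholipids of lipoproteins. In WT replicates 1 to 3 *Pla2g2e* had 2.09, 3.48 and 3.42 CPM, and in Prmt5AKO replicates 1 to 3 it had 12.7, 52.4 and 36.8 CPM. Even the lowest Prmt5AKO library, replicate 1, lay above the highest WT library. The counting intervals (exact Poisson, 95%, covering counting error only) of these libraries, 11.2 to 14.3 CPM and 2.81 to 4.27 CPM, were also apart. Mean levels of 3.00 ± 0.785 CPM for WT and 34.0 ± 20.0 CPM for Prmt5AKO (SD, n = 3) gave a ratio of 11.3 and a log2 fold change of 3.11 (SE 0.52). The spread among the Prmt5AKO libraries was wide, and the log2 fold change was 3.70 without Prmt5AKO replicate 1 and 2.69 without Prmt5AKO replicate 2. Prmt5AKO replicate 1 and WT replicate 1 had nearly the same nuclear-retained RNA level (3067 and 3072 CPM), and *Pla2g2e* was at 12.7 and 2.09 CPM in them, which compares 1 library of each genotype. Within Prmt5AKO *Pla2g2e* ran against the nuclear-retained level, with 52.4 and 36.8 CPM in replicates 2 and 3, where that level was 195 and 202 CPM. The part of RNA composition in the *Pla2g2e* difference was not tested.

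*Pla2g5*, the neighbour of *Pla2g2e* on chromosome 4, encodes group V secreted phospholipase A2, which hydrolyses phosphatidylcholine of lipoproteins and cell membranes. Its values were 1.62, 1.29 and 2.03 CPM in WT and 5.43, 7.71 and 2.88 CPM in Prmt5AKO. All 3 Prmt5AKO libraries lay above the WT libraries, with replicate 3 the nearest to them. Means of 1.65 ± 0.371 and 5.34 ± 2.42 CPM gave a ratio of 3.25 and a log2 fold change of 1.37 (SE 0.41), which ranged from 1.08 to 1.72 when 1 library was left out. The library order within Prmt5AKO was not that of *Pla2g2e*, since *Pla2g5* was lowest in replicate 3 and *Pla2g2e* in replicate 1. *Pla2g2a*, a pseudogene in the annotated strain, lies inside *Pla2g5* on the opposite strand. The strand setting of the counting is not stated. Of 3016 distinct 50-base stretches of the annotated *Pla2g5* transcripts, however, 0 occur in transcripts of another gene on either strand.

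*Pla2g2d*, at the other end of the chromosome 4 group, encodes the group IID enzyme, known in mice from dendritic cells and macrophages of lymphoid tissue. It had 15.1, 13.4 and 12.1 CPM in WT and 7.93, 13.4 and 22.0 CPM in Prmt5AKO. The WT libraries lay close together while the Prmt5AKO libraries lay on both sides of them, with means of 13.5 ± 1.51 and 14.4 ± 7.07 CPM and a log2 fold change of -0.01 (SE 0.39). Its highest value was in Prmt5AKO replicate 3, the library with the highest summed level of 11 T and NK cell markers (132 CPM, against 46.0 and 49.8 CPM in the other Prmt5AKO libraries and 16.5 to 32.2 CPM in WT). All 11 of these markers were detected in the table. The 8 dendritic cell markers summed to 60.3 to 60.8 CPM in WT and to 86.0, 53.1 and 75.1 CPM in Prmt5AKO replicates 1 to 3, so their sum was highest in the library where *Pla2g2d* was lowest. The single markers were split, since within Prmt5AKO 3 of the 8 were highest in replicate 1, 1 in replicate 2 and 4 in replicate 3. The macrophage markers summed to 2141, 2744 and 3714 CPM in Prmt5AKO replicates 1 to 3, in the order of *Pla2g2d*. Within WT the order differed. There *Pla2g2d* was highest in replicate 1, where the macrophage sum (1443 CPM) and the T and NK cell sum (16.5 CPM) were lowest. The part of these cell types in the *Pla2g2d* values was not tested. In bulk tissue such as this, fewer cells of a type and less RNA per cell cannot be told apart.

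*Pla2g12a*, the group XIIA enzyme, differs in sequence from the other secreted members and is widely expressed. It was at 59.5, 99.8 and 85.3 CPM in WT and 49.4, 95.6 and 102 CPM in Prmt5AKO. The genotypes overlapped over nearly their whole range, and the means of 81.5 ± 20.4 and 82.2 ± 28.5 CPM gave a log2 fold change of -0.03 (SE 0.36). Of the 4 secreted genes, therefore, *Pla2g2e* and *Pla2g5* had all Prmt5AKO libraries above WT, and the estimates of *Pla2g2d* and *Pla2g12a* lay within 1 SE of 0.

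Of the group IV cytosolic enzymes, *Pla2g4a* encodes cytosolic phospholipase A2α, which prefers arachidonate at sn-2. It was at 17.6, 11.96 and 14.6 CPM in WT and at 6.77, 6.38 and 5.05 CPM in Prmt5AKO. Every Prmt5AKO library lay below every WT library, and within each genotype the values were close. The mean was 14.7 ± 2.81 CPM in WT and 6.07 ± 0.901 CPM in Prmt5AKO, 2.42-fold lower, with a log2 fold change of -1.20 (SE 0.30). Leaving out 1 library moved it only between -1.34 and -1.07. Unlike *Pla2g2e*, the gene did not set Prmt5AKO replicate 1 apart from replicates 2 and 3.

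The 9 fibroblast and progenitor markers, all detected, were also lower in sum in Prmt5AKO, at 2623 to 3140 CPM against 3787 to 5577 CPM in WT, and 8 of the 9 had negative log2 fold changes (median -0.54). The genotypes were apart for only 3 of the 9 (*Dpp4*, *Pi16* and *Dcn*, all lower), beside 6.28% of all genes lower. Much of the sum is *Dcn*, with means of 1415 CPM in WT and 559 CPM in Prmt5AKO. *Ly6a* (-0.003) and *Col1a1* (0.05) hardly differed. By the root mean square difference of mean-centred log2(CPM + 0.5) over the 6 libraries, the genes most like *Pla2g4a* among 14516 with a mean of at least 1 CPM were *Dcn*, which encodes the matrix proteoglycan decorin and is on that marker list, *9530026P05Rik* and *Agtr1a*, the angiotensin receptor gene, with differences of 0.099, 0.099 and 0.11 log2 units. *Dcn* was at 1631, 1070 and 1545 CPM in WT and 610, 576 and 492 CPM in Prmt5AKO. The part of fibroblast content in the *Pla2g4a* values was not tested.

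*Pla2g4e* encodes cytosolic phospholipase A2ε, which in mouse acts as a calcium-dependent N-acyltransferase that makes N-acyl-phosphatidylethanolamine. It was the rarest member, with 18, 7 and 22 reads in WT and 16, 24 and 4 reads in Prmt5AKO. This corresponded to 0.768, 0.265 and 0.783 CPM in WT and 0.742, 1.07 and 0.189 CPM in Prmt5AKO. Both the highest and the lowest value were in Prmt5AKO, and their counting intervals, 0.686 to 1.59 CPM for replicate 2 and 0.0515 to 0.484 CPM for replicate 3, did not overlap. The means were 0.605 ± 0.295 CPM and 0.667 ± 0.445 CPM (log2 fold change 0.04, SE 0.42), and the sign was negative without WT replicate 2 (-0.21), Prmt5AKO replicate 1 (-0.05) or Prmt5AKO replicate 2 (-0.22). The difference between genotypes was smaller than the spread within each. Of the 50-base stretches of its annotated transcripts, 1.94% are shared with other genes, where reads could not be assigned uniquely.

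*Pla2g6* encodes the calcium-independent phospholipase A2β, which takes part in membrane remodelling. It was at 42.9, 67.7 and 46.4 CPM in WT and 55.8, 119 and 131 CPM in Prmt5AKO. Replicates 2 and 3 of Prmt5AKO lay above all WT libraries, and replicate 1 lay below WT replicate 2. The means of 52.3 ± 13.4 and 102 ± 40.6 CPM gave a ratio of 1.95 and a log2 fold change of 0.89 (SE 0.38), which was 1.28 without Prmt5AKO replicate 1 and 0.67 without Prmt5AKO replicate 3.

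*Pla2g15* encodes the lysosomal phospholipase A2, which also acts as a transacylase. Its values were 52.0, 93.1 and 51.8 CPM in WT and 67.0, 129 and 114 CPM in Prmt5AKO. As for *Pla2g6*, only Prmt5AKO replicate 1 lay within the WT range, and the means of 65.6 ± 23.8 and 104 ± 32.5 CPM gave a log2 fold change of 0.66 (SE 0.36), or 0.94 without Prmt5AKO replicate 1 and 0.47 without Prmt5AKO replicate 2.

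*Pla2g6* and *Pla2g15* shared a pattern over libraries that the genotype alone does not give. In WT both were highest in replicate 2, which had the lowest nuclear-retained RNA level of WT (810 CPM), and in Prmt5AKO both were lowest in replicate 1, which had the highest of Prmt5AKO (3067 CPM). *Pla2g12a* and *Pla2g2e* were likewise highest in replicate 2 within WT and lowest in replicate 1 within Prmt5AKO. For *Pla2g2e*, however, WT replicates 2 and 3 were nearly equal (3.48 and 3.42 CPM). Their counting intervals, 2.81 to 4.27 and 2.77 to 4.17 CPM, overlapped. At like nuclear-retained RNA levels, *Pla2g6* was at 55.8 CPM in Prmt5AKO replicate 1 against 42.9 CPM in WT replicate 1, and *Pla2g15* at 67.0 against 52.0 CPM. The part of RNA composition in these values was not tested.

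*Pla2g7* encodes the plasma PAF acetylhydrolase, a secreted enzyme made largely by macrophages that degrades PAF and oxidised phospholipids. It was at 27.0, 44.7 and 39.5 CPM in WT and 32.9, 19.8 and 23.0 CPM in Prmt5AKO. Replicates 2 and 3 of Prmt5AKO lay below all WT libraries, whereas replicate 1 lay above WT replicate 1. The means were 37.1 ± 9.13 and 25.3 ± 6.80 CPM (log2 fold change -0.54, SE 0.31), with -0.76 without WT replicate 1 and -0.39 without Prmt5AKO replicate 2. The 14 macrophage markers, all detected, summed to 1443, 2891 and 2316 CPM in WT and 2141, 2744 and 3714 CPM in Prmt5AKO. *Pla2g7* followed the order of the macrophage sum among WT libraries, and in Prmt5AKO it was highest in the library with the lowest sum. The single markers differed within Prmt5AKO. Like *Pla2g7*, 5 of the 14 (*Adgre1*, *Mrc1*, *Itgam*, *Msr1* and *Mertk*) were highest in replicate 1, and the other 9 were highest in replicate 3. *Mrc1* was at 144, 56.8 and 44.4 CPM in Prmt5AKO replicates 1 to 3. In WT *Mrc1* was at 140, 78.8 and 130 CPM, lowest in replicate 2, where *Pla2g7* was highest. The part of macrophage content in the *Pla2g7* values was not tested. The annotated gene *1700071M16Rik* overlaps *Pla2g7* on the opposite strand, and 6.86% of the 50-base stretches of *Pla2g7* transcripts also occur in it.

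**Figure D2:**
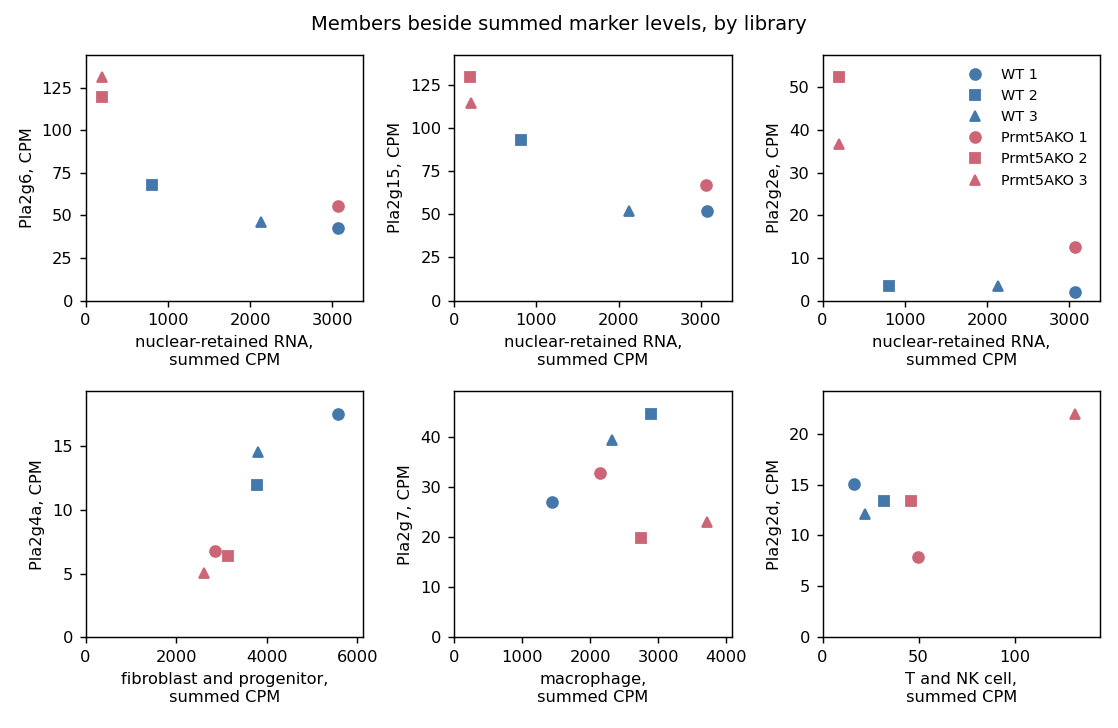
Each panel sets the CPM of 1 member (y axis, linear) against the summed CPM of a marker list (x axis, linear) in the 6 libraries, WT in blue and Prmt5AKO in red, with the shape giving the replicate. *Pla2g6* and *Pla2g15* are highest in the libraries with the least nuclear-retained RNA, and *Pla2g4a* and the fibroblast sum are both lower in all 3 Prmt5AKO libraries. Much of the fibroblast sum is *Dcn*, and the genotypes are apart for only 3 of its 9 markers, beside 6.28% of all genes lower.

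**Figure D3:**
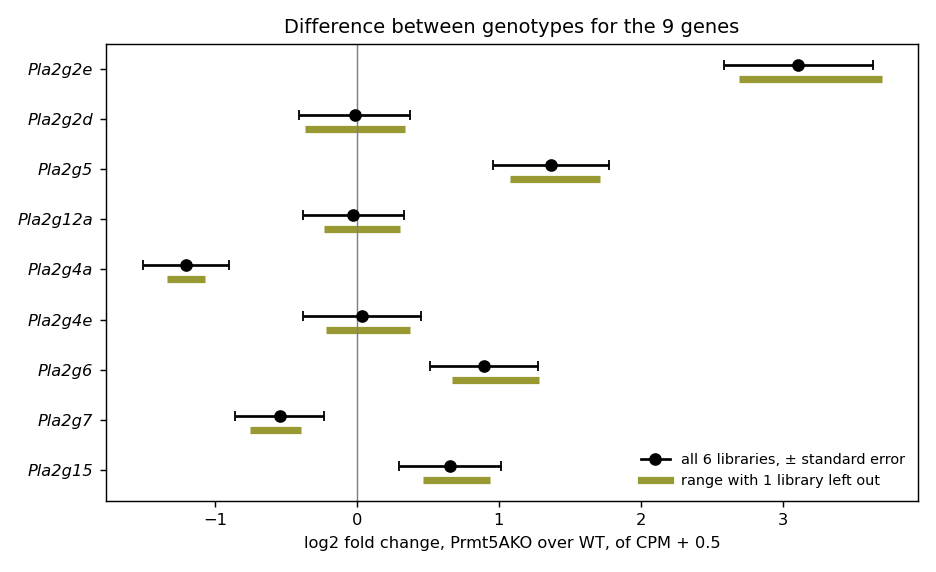
Log2 fold change of CPM + 0.5, Prmt5AKO over WT (x axis), of each member from all 6 libraries (points, bars ± SE) and its range when each library is left out in turn (olive bars). The range stays above 0 for *Pla2g2e*, *Pla2g5*, *Pla2g6* and *Pla2g15*, below 0 for *Pla2g4a* and *Pla2g7*, and spans 0 for *Pla2g2d*, *Pla2g12a* and *Pla2g4e*.

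Levels can be compared between genes only per length, and CPM were therefore divided by the exon length of each gene (kb, GENCODE release 21). In WT eWAT *Pla2g12a* and *Pla2g15* were highest, at 22.1 ± 5.54 and 21.8 ± 7.89 CPM per kb. They were followed by *Pla2g7* (12.8 ± 3.14), *Pla2g6* (9.63 ± 2.47), *Pla2g2d* (6.02 ± 0.671), *Pla2g2e* (3.27 ± 0.856), *Pla2g4a* (2.30 ± 0.440), *Pla2g5* (0.571 ± 0.129) and *Pla2g4e* (0.0870 ± 0.0424). Neighbours in this order whose libraries overlapped were *Pla2g12a* and *Pla2g15*, *Pla2g7* and *Pla2g6*, and *Pla2g2e* and *Pla2g4a*, and the last pair exchanged places when the longest transcript was used as the length (3.51 and 4.26 CPM per kb).

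In Prmt5AKO eWAT the highest mean was that of *Pla2g2e*, at 37.1 ± 21.9 CPM per kb, with a range (13.8 to 57.2) that overlapped that of *Pla2g15* (34.4 ± 10.8). *Pla2g12a* (22.3 ± 7.75), *Pla2g6* (18.8 ± 7.48), *Pla2g7* (8.69 ± 2.34) and *Pla2g2d* (6.43 ± 3.15) came next, each overlapping the one before it. With the longest transcript as the length, *Pla2g6* (30.4 CPM per kb) stood above *Pla2g12a* (27.5 CPM per kb). *Pla2g5* (1.85 ± 0.838) lay below *Pla2g2d* in every library and overlapped *Pla2g4a* (0.949 ± 0.141), and *Pla2g4e* was again lowest (0.0958 ± 0.0640). *Pla2g2e* thus moved from the sixth place per length in WT to the first in Prmt5AKO, and *Pla2g4a* from the seventh to the eighth.

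**Figure D4:**
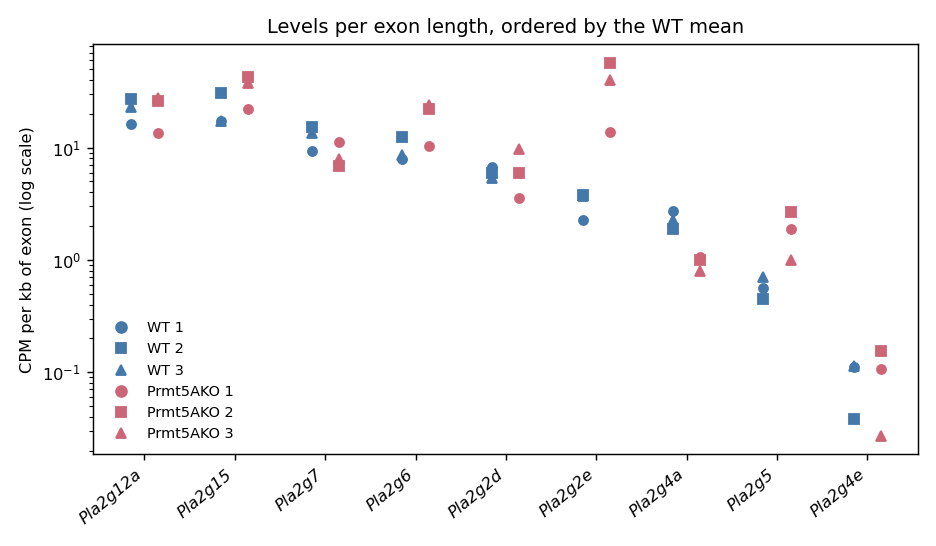
CPM per kb of exon (y axis, log scale) of the 9 genes in each library, ordered by the WT mean, with WT in blue, Prmt5AKO in red and the shape giving the replicate. *Pla2g2e* lies between 2.28 and 3.80 CPM per kb in WT and between 13.8 and 57.2 in Prmt5AKO.

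The genes whose pattern over the 6 libraries was most like that of *Pla2g2e*, by the same measure, were *Serpina3b*, a serine protease inhibitor gene, *Rab26os*, a noncoding transcript, and *Vps25*, which encodes a subunit of the ESCRT-II complex, with differences of 0.30, 0.33 and 0.42 log2 units. *Serpina3b* was at 2.94, 2.54 and 2.95 CPM in WT and 16.3, 44.9 and 34.0 CPM in Prmt5AKO. For *Pla2g4e* they were *Gm42984*, *2210408I21Rik* and *Colgalt2* (0.085, 0.14 and 0.15 log2 units among 14517 genes). With 6 libraries and many genes such likeness is a description.

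The other genes of phospholipid turnover were taken from 8 lists that exclude the 9 members, with 121 genes kept. Limma called 0 of the 121, against 0 of all genes, and 9 were higher and 11 lower with unadjusted p under 0.05, which is 16.5% of them beside 8.72% of all genes. The lists were drawn up with earlier results of these data known, so this share is not evidence about the pathway. DESeq2 and the edgeR likelihood ratio test each called 1 (0.826%, beside 1.87% and 1.01% of all genes), *Ptgds*, and edgeR's quasi-likelihood test called 0. The median log2 fold change over the 121 was -0.03, as it was over all 16109 genes, with 60 positive and 61 negative.

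Of the other phospholipase A2 family genes, 19 were kept, with 9 positive and 10 negative log2 fold changes and a median of -0.03. The smallest p-values belonged to *Plaat5*, whose product is an N-acyltransferase and phospholipase (1.97 ± 0.547 CPM in WT and 5.04 ± 1.83 CPM in Prmt5AKO, log2 fold change 1.13, SE 0.38, limma adjusted p = 0.461), to the secreted enzyme gene *Pla2g3* (1.02 ± 0.0783 and 0.294 ± 0.239 CPM, -0.98, SE 0.34, limma adjusted p = 0.474), and to the phospholipase B gene *Plb1* (0.312 ± 0.119 and 1.02 ± 0.392 CPM, 0.89, SE 0.33, limma adjusted p = 0.512). *Plb1* passed the filter on low values only through its Prmt5AKO libraries, with 10, 5 and 9 reads in WT and 18, 33 and 16 in Prmt5AKO. *Pla2g3* passed it through its WT libraries, since in Prmt5AKO only replicate 1 reached 0.5 CPM. It had 24, 25 and 31 reads in WT and 12, 2 and 5 in Prmt5AKO. *Plaat3*, named here after its values were seen, encodes the adipocyte phospholipase A2 AdPLA and had 838, 979 and 950 CPM in WT and 826, 1691 and 1314 CPM in Prmt5AKO (log2 fold change 0.41, SE 0.37, limma adjusted p = 0.652). Its WT libraries lay close together, and Prmt5AKO replicate 1 lay below all of them.

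Of the 8 genes of the phospholipase A2 receptor, its activator and the annexins, *Anxa3* had the smallest p, at 105 ± 8.41 CPM in WT and 59.8 ± 8.55 CPM in Prmt5AKO (log2 fold change -0.81, SE 0.24, limma adjusted p = 0.410). *Anxa6*, another annexin gene, followed (0.78, SE 0.39). *Pla2r1*, which encodes the receptor that binds secreted phospholipases A2, was at 23.8, 8.67 and 13.1 CPM in WT and 14.5, 2.90 and 5.34 CPM in Prmt5AKO, with overlapping genotypes (log2 fold change -1.12, SE 0.59, limma adjusted p = 0.599).

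Lysophospholipid acyltransferases return a fatty acid to the lysophospholipid that a phospholipase A2 leaves. Of 14 kept, 9 had positive and 5 negative log2 fold changes (median 0.18). *Lpcat2*, which makes PAF and phosphatidylcholine, was at 3.88, 6.55 and 7.05 CPM in WT and 2.04, 2.05 and 2.83 CPM in Prmt5AKO, so that the genotypes did not overlap (log2 fold change -1.14, SE 0.35, limma adjusted p = 0.426). *Mboat1* and *Agpat2* followed, with log2 fold changes of -0.57 (SE 0.34) and 0.86 (SE 0.53) and overlapping genotypes.

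Genes that handle lysophospholipids and lysophosphatidic acid (20 kept) had a median of -0.10. *Lpar1*, a receptor for lysophosphatidic acid, averaged 20.3 ± 5.32 CPM in WT and 8.72 ± 3.40 CPM in Prmt5AKO (log2 fold change -1.20, SE 0.37, limma adjusted p = 0.426). *Abhd6*, a monoacylglycerol and lysophospholipid hydrolase (0.73, SE 0.29), and *Plpp1*, a lipid phosphate phosphatase (-0.79, SE 0.34), were next, and neither was called.

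Among 20 kept genes of arachidonate use, 7 had positive and 13 negative log2 fold changes (median -0.12). *Ptgds*, a prostaglandin D synthase, averaged 3.49 ± 1.92 CPM in WT and 0.168 ± 0.0675 CPM in Prmt5AKO (log2 fold change -2.48, SE 0.40, limma adjusted p = 0.174). *Ptgs2*, the inducible cyclooxygenase that uses arachidonate, was at 1.79 ± 0.995 and 0.199 ± 0.209 CPM (-1.65, SE 0.45, limma adjusted p = 0.382). Both *Ptgds* and *Ptgs2* passed the filter on low values only through their WT libraries. In Prmt5AKO replicates 1 to 3 they had 2, 5 and 4 reads (*Ptgds*) and 9, 4 and 0 reads (*Ptgs2*). *Ltc4s*, which makes leukotriene C4, was at 56.6 ± 22.7 and 116 ± 32.5 CPM (1.06, SE 0.36, limma adjusted p = 0.473).

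The 13 genes of PAF and ether lipids had the lowest median of the 8 lists, -0.57, with 6 positive and 7 negative. With so even a split, that median is the value of the least negative gene, and it says little about the list. *Cept1*, a choline and ethanolamine phosphotransferase, averaged 58.5 ± 3.30 CPM in WT and 32.8 ± 9.96 CPM in Prmt5AKO (log2 fold change -0.87, SE 0.28, limma adjusted p = 0.454). *Pex7*, the import receptor of the plasmalogen enzyme alkylglycerone phosphate synthase, and *Agmo*, which cleaves ether lipids, had log2 fold changes of -0.65 (SE 0.26) and -0.84 (SE 0.33).

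For N-acylethanolamine and endocannabinoid genes, the pathway downstream of the *Pla2g4e* product, the 13 kept had a median of 0.05, with 0 at an unadjusted p under 0.05 in limma and 0 called by limma, edgeR's tests or DESeq2. *Dagla*, *Abhd4* and *Gpr55* had the smallest p-values of this list, and their genotypes overlapped. The 16 lysosomal genes, which share their compartment with *Pla2g15*, had the highest median, 0.36, with 11 positive and 5 negative. *Pld3*, a lysosomal phospholipase D family member, was at 57.0 ± 12.3 and 99.4 ± 12.9 CPM (log2 fold change 0.81, SE 0.27, limma adjusted p = 0.460). Its genotypes did not overlap, whereas they did for *Smpd1*, acid sphingomyelinase (1.12, SE 0.39).

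**Figure D5:**
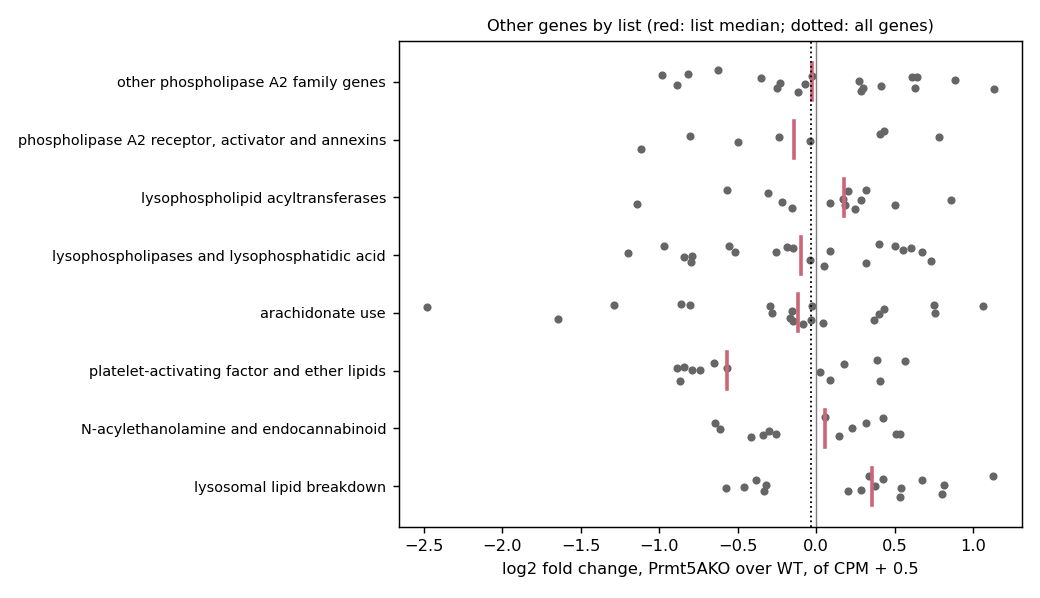
Log2 fold changes of CPM + 0.5, Prmt5AKO over WT (x axis), of the kept genes of 8 lists (rows, 1 point per gene, vertical jitter only for legibility), with the median of each list in red and that of all genes dotted. List medians run from -0.57 to 0.36 beside -0.03 for all genes.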

How the data were processed

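Per the study's methods and the submitters' processing notes, read quality was checked by the authors (FastQC 0.11.9) before trimming in Trim Galore 0.6.0. They aligned reads to GRCm38 (GENCODE release 25) with STAR 2.7.10a, kept properly and uniquely mapped pairs of mapping quality at least 10 and counted them per gene with featureCounts of Subread 2.0.1. The strand setting is not given in the sources used here. The study mentions a batch correction without naming the batches, so no batch term could be fitted, and the deposited values, being whole reads over a library size, carry none. The authors deposited a normalized signal per gene and library, named CPM, which is reads divided by an effective library size. In every library 100% of values were whole multiples of 1 read (tolerance 0.05 of a read), so reads could be recovered. The deposited fold changes, p-values and enrichment tables hold the study's own findings and were not used. Anything that CPM values share within a library (RNA quality, cell make-up) stays in them.

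A gene was kept when 3 or more libraries reached 0.5 CPM, and log2(CPM + 0.5) was fitted in limma 3.58.1 on genotype alone, with eBayes and its trend option. The fit had been planned for plain CPM, and it was kept for this scaled signal. Fold changes on that scale understate those of low genes. Alternatives were another pseudocount (0.1, 2), no filter or 2 CPM, other scalings, limma-voom, edgeR 4.0.16 (also the study's tool), DESeq2 1.42.0, a block for the replicate number, array weights, adjusted p alone, and each library left out. The code was tested on simulated data. Precision from depth is given as exact Poisson intervals. The members and gene lists were chosen with earlier results of these data known. Named genes are the members, *Prmt5*, the called genes of each list or else the 3 with the smallest p, and the 3 genes most like *Pla2g2e*, *Pla2g4a* and *Pla2g4e*. For 1 of these list genes the result is not reported here. Positions and exon lengths are from GENCODE release 21, while reads were counted on release 25, and promoters from RefSeq, where 9 of 9 members were found by symbol. R 4.3.3, Python 3.11.15, pandas 2.3.3, scipy 1.17.1 and matplotlib 3.10.9 were used.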

Additional observations from a re-analysis of the deposited data

How the results depend on the processing

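Of the 9 genes, *Pla2g2e*, *Pla2g5*, *Pla2g4a*, *Pla2g6*, *Pla2g7* and *Pla2g15* kept the sign of their log2 fold change under all 20 alternatives, and *Pla2g2d*, *Pla2g12a* and *Pla2g4e* did so under 14 of 20, 13 of 20 and 16 of 19. These counts include alternatives that could not change a sign. The other filters and the replicate block in limma leave the estimate of a kept gene as it was (3.11 for *Pla2g2e*). Over all genes, against 0 called, edgeR's likelihood ratio test called 162 and DESeq2 301. Of the members they called 1 and 3, and of the 121 other pathway genes 1 each. With library weights, a fit whose estimation stopped before it converged, limma called 9322 genes, 6 members and 78 pathway genes. Weights moved *Pla2g7* to -0.94 and *Pla2g15* to 1.25. Leaving out 1 library gave 0 to 84 calls over all genes, 0 to 1 member and 0 to 0 pathway genes, and the 84 genes, with *Pla2g2e*, were called without Prmt5AKO replicate 1. When the replicate number entered as a block, 129 genes were called by limma, 53 by edgeR's quasi-likelihood fit and 682 by the likelihood ratio test, with 1, 1 and 2 members and 1, 1 and 6 pathway genes. The study's batch correction names no batches, and the labels tie the numbers to no litter or batch, so whether the block stands for one is unknown. Since deviations from the genotype means correlated between same-numbered libraries at 0.678, 0.571 and -0.107, they were not treated as pairs. WT replicate 3 correlated best with Prmt5AKO replicate 1 (0.149). The cause of these differences in counts was not tested. *Pla2g4e* gave no value at a filter of 2 CPM. It rested on 4 to 24 reads per library.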
